A study of Macrobrachium nipponense with 4 samples.

Results

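A set of 218 contigs, out of 58871 in the count table of the oriental river prawn (Macrobrachium nipponense) hepatopancreas, was chosen by its high level in the library of prawns kept for 28 days in nitrite. A contig was chosen by 3 of the 4 columns of the table: its level in the chronic nitrite library (column MT) had to be at least 10 CPM (counts per 1000000 of the column total) and at least 4 times the level in both unexposed libraries. These were column ML, the control of the chronic experiment, and column CL, the control of the acute experiment. The fourth column, TL, had no part in the choice. Of the 4531 contigs with at least 10 CPM in MT, the 218 made 4.81%.

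The study exposed juvenile prawns to nitrite in fresh water and sequenced 1 hepatopancreas library per group. The labels give 6.555 mg/l nitrite for 28 days in the chronic nitrite group, and 0 mg/l in its control of the same day. They give 26 mg/l nitrite for 24 h in the acute nitrite group, and 0 mg/l in its control of the same hour. The labels put 9 prawns in each group and say nothing about pooling. Groups follow the treatment labels, since another label field describes the chronic pair as sampled after acute exposure. The columns MT, ML and CL carry the short names of their samples. TL matches none, and is taken as the acute nitrite library by elimination, because the acute nitrite sample (short name CT) is the 1 sample left without a column. Everything below that reads TL as nitrite exposure rests on that step, so the library is called TL throughout. Total counts were 24818146 in MT, 22616364 in TL, 26366818 in ML and 21215108 in CL.

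Nitrite is an intermediate of the oxidation of ammonia in ponds and recirculating tanks. In freshwater crustaceans it enters largely through the gills by the route that takes up chloride, and it can reduce the oxygen-carrying capacity of haemocyanin, the copper protein of the blood. The hepatopancreas secretes digestive enzymes, absorbs nutrients, stores lipid and handles foreign compounds, much as liver and pancreas do together in vertebrates. The contig names carry no gene: 0 of the 58871 matched any of the 32339 genes of the RefSeq table for this species (assembly ASM1510439v2). The contigs are therefore described by level, pattern and name alone, their functions are not given here, and the labelled tissue and cell type could not be checked against marker genes. In whole-tissue RNA, fewer cells of a type and less RNA per cell cannot be told apart.

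The chosen contigs were mostly of moderate level. Their median level in MT was 28.6 CPM, with a range from 10.03 to 1579.5 CPM. In the unexposed libraries their medians were 2.62 CPM in ML and 3.16 CPM in CL. These values were selected and are given as description only. Together the 218 contigs took 1.09% of the counts in MT (exact Clopper-Pearson 95% interval, 1.09 to 1.10), 0.0925% in ML (0.0913 to 0.0936) and 0.120% in CL (0.118 to 0.121). The most abundant of them alone made 14.4% of their counts in MT, and without it they took 0.937% of that library. Intervals of this kind cover counting error only.

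The library that took no part in the choice held the lowest level of these contigs. Their median in TL was 0.995 CPM, and together they took 0.0407% of the counts in TL (0.0399 to 0.0415), below their share in either unexposed library. In TL, 109 of the 218 contigs were below 1 CPM and 8 had no count, against 21 below 1 CPM and 10 with no count in CL. Only 5 reached 10 CPM in TL, against 30 in CL.

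**Figure D1:**
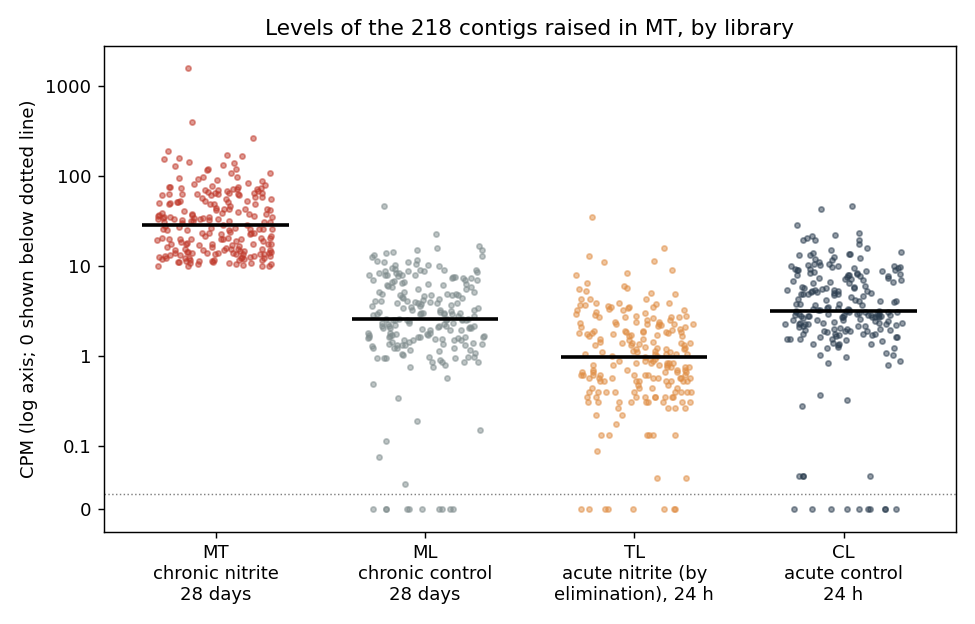
Level of each of the 218 raised contigs (points, CPM on a log axis, with counts of 0 drawn below the dotted line) in the chronic nitrite library MT, its control ML, the library TL taken as acute nitrite, and its control CL. Black bars are medians, at 28.6, 2.62, 0.995 and 3.16 CPM in that order, so the contigs chosen for their level in MT lie lowest in TL.

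Whether the contigs raised in chronic nitrite were also high in the acute experiment was asked with TL against CL. They were not: 193 of the 218 (88.5%) had a lower CPM in TL than in CL, 18 had a higher one and 7 an equal one. At least 2-fold lower were 186 (85.3%). Among the 4313 other contigs with at least 10 CPM in MT, 1004 (23.3%) were lower in TL than in CL, and 81 (1.88%) were at least 2-fold lower. With TL read as acute nitrite, the direction in the acute experiment was thus the opposite of the selected direction for most of the set.

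The same held with counting error taken into account. A contig passed the rule as higher or as lower if the exact 95% counting interval of the ratio of its CPM values lay wholly beyond 2-fold, among contigs with at least 1 CPM in TL or CL. With 1 library per group this rule has no replicate check and gives no p-value. By it, 139 of the raised contigs were lower and 3 higher in TL than in CL. The background over all 23597 contigs that passed the filter was 4.96% lower and 2.4% higher. Of the 218 contigs 197 passed this filter, 109 through both libraries and 88 through CL alone, and none through TL alone. Since a contig that passes through CL alone is likely to be lower in TL, the count was repeated over all 218 with no filter, which again gave 139 lower (63.8%) and 3 higher (1.38%), against 59 lower (1.37%) and 111 higher (2.57%) of the 4313 others.

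The size of the difference was close to 4-fold. The median log2 ratio of TL over CL was -1.99 over the 197 contigs, with quartiles at -2.30 and -1.62, and -1.95 over the 211 with a count in either library and no filter. Over all contigs that passed the filter the median was 0.25, and over the others with at least 10 CPM in MT it was 0.26, with quartiles at 0.02 and 0.51. The distance between the raised contigs and all contigs was thus -2.23 on the log2 scale. Scaling with TMM factors (trimmed means, which give less weight to the few very abundant contigs) moved the median of all contigs to 0.03 and that of the raised contigs to -2.19. It gave 153 lower and 3 higher among the raised contigs, against 5.77% lower and 1.59% higher over all contigs that passed the filter. Over all contigs, 32.6% of those past the rule were higher with column totals and 21.6% with TMM factors.

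**Figure D2:**
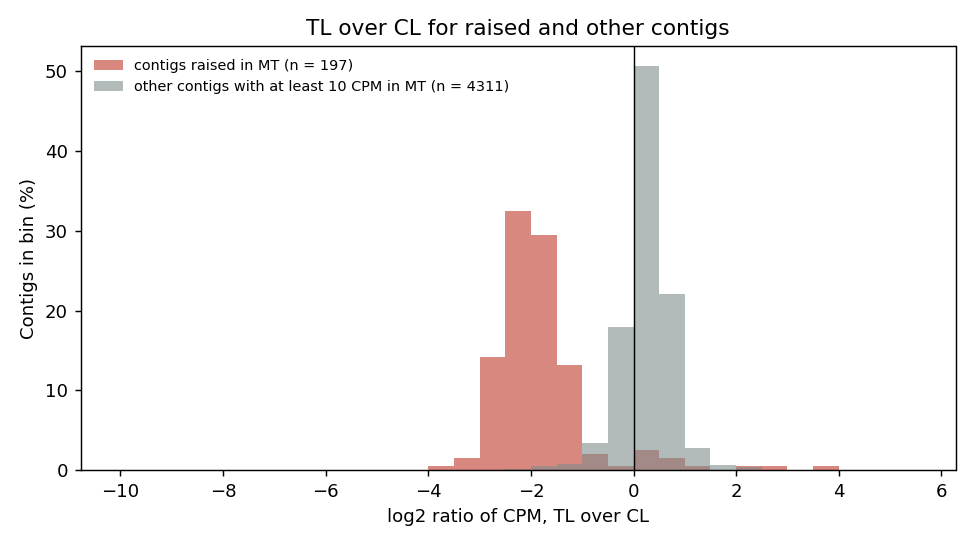
Share of contigs (vertical axis, percent) in bins of the log2 ratio of CPM, TL over CL, for the 197 raised contigs that passed the filter (red) and the 4311 other contigs with at least 10 CPM in MT that did (grey). The raised contigs centre on -1.99, the others on 0.26.

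CL took part in the choice of contigs through its low values, which by counting noise alone would push the ratio of TL over CL up. To take CL out of the choice, contigs were also chosen on MT and ML alone, a setting added after the data were seen. This gave 253 contigs, of which 152 were lower and 3 higher in TL than in CL. The median log2 ratio was -1.95 over the 232 that passed the filter. Here neither library of the acute comparison had chosen the contigs, but 94 passed the filter through CL alone and 0 through TL alone. With no filter, 152 of the 253 (60.1%) were lower and 3 (1.19%) higher, with a median of -1.92 over the 246 with a count. Of the 4313 contigs outside the original set with at least 10 CPM in MT, 1.37% were lower and 2.57% higher. The 35 contigs that this choice added are those whose CL value was too high for the original rule, which favours a lower ratio of TL over CL, and of them 13 were lower and 0 higher, with a median of -0.96. Chosen on MT and CL alone, likewise added after the data were seen, there were 248 contigs, of which 139 were lower and 16 higher in TL than in CL, with a median of -1.93. They took 0.224% of the counts in TL, against 0.0407% for the 218. The 30 contigs added here are those with ML too high for the original rule. Of them 28 passed the filter, and 13 were higher and 0 lower, with a median of 0.99. Over all contigs that passed the filter 2.4% were higher. These 30 were still chosen for low CL values, which favours a higher ratio of TL over CL.

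The raised contigs were also mostly below the chronic control in TL. Over all 218 with no filter, 195 (89.4%) had a lower CPM in TL than in ML, 16 a higher one and 7 an equal one, against 1359 lower (31.5%) of the 4313 others. By the counting interval 83 of the 218 (38.1%) were lower and 3 (1.38%) higher, against 142 lower (3.29%) and 330 higher (7.65%) of the others, and the median log2 ratio was -1.49 over the 211 with a count. With the filter, which 109 passed through both libraries, 76 through ML alone and 0 through TL alone, 82 were lower and 3 higher of the 185 that passed the filter, where the background over 22975 contigs was 2.23% lower and 8.45% higher. This comparison shares ML with the choice of contigs. Their median log2 ratio of TL over ML was -1.52, against 0.43 for all contigs. With TMM factors 127 of the 197 raised contigs that passed the filter were lower in TL than in ML and 3 higher. Over all 23301 contigs that passed it, 905 were lower and 968 higher. Higher contigs were thus 51.7% of those past the rule, against 79.1% with column totals. Of the 183 raised contigs that could be compared with both controls, 75 were lower than both in TL and 3 were higher than both. Over all 22025 contigs of that kind, 167 (0.758%) were lower than both and 373 (1.69%) higher than both. Both controls took part in the choice, and 0 raised contigs passed either filter through TL alone. The joint count was not repeated without the filter.

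The 4 libraries fell in 1 common order for most of the set, with MT above ML and CL by the choice. TL was the single lowest library for 189 of the 218 contigs (86.7%), against 601 of the 4313 others (13.9%). For 156 contigs (71.6%) CL was above ML and ML above TL, against 172 of the others (3.99%). For 33 more (15.1%) ML was above CL and CL above TL, against 429 of the others (9.95%), a nearer share. The libraries without nitrite were close to each other, with a median log2 ratio of CL over ML of 0.41. The ratio itself ranged from -0.95 to 1.51 over the 199 contigs that passed the filter. For 0 of these 199 did the whole counting interval lie beyond 2-fold. Over all contigs that passed the filter, 7.96% were higher and 1.71% lower in CL than in ML. The choice favours this closeness because both libraries had to be low. MT and TL were the farthest apart. The median log2 ratio of MT over TL was 4.92, a 30.4-fold difference between the exposed library that chose the contigs and the one that did not. This ratio is in part set by the choice of high MT values. At least 16-fold lower in TL than in MT were 193 of the 218 contigs (88.5%), against 12 of the 4313 others (0.278%).

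In TL over CL the raised contigs varied among themselves about as much as contigs in general did. Leaving aside 16 contigs that were seen almost in MT alone, described below, the log2 ratio of MT over ML had its quartiles at 3.05 and 3.47 over 202 contigs, and 155 of them lay from 3 to below 4. For TL over CL, 122 of 197 lay from -2.5 to below -1.5. The quartiles of TL over CL were 0.68 apart for the raised contigs, against 0.73 for all contigs and 0.49 for the others with at least 10 CPM in MT. The raised contigs were thus spread more widely in TL over CL than the others of that MT level. They also had fewer counts, which widens ratios: their medians were 22.5 counts in TL and 67 in CL, against 531 and 403. Whether the spread differs beyond counting error was not tested. For MT over ML the quartiles were 0.42 apart over the 202 contigs, against 0.74 for all contigs. The range of MT over ML is in part set by the choice, which cut it off below, and by setting the 16 aside.

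The median ratio in the acute pair was similar across levels in MT. The 17 raised contigs with at least 100 CPM in MT had a median of 4.29 CPM in TL and 19.3 CPM in CL, and 14 of the 15 that passed the filter were lower in TL. The 78 contigs from 10 to 20 CPM in MT had medians of 0.464 CPM in TL and 1.86 CPM in CL, and 36 of 67 were lower. Their median log2 ratios were -2.25 and -2.02, so the lower class had a smaller share past the rule at a similar median, with fewer counts per contig. In the classes between, 40 of 43 contigs from 50 to 100 CPM and 49 of 72 from 20 to 50 CPM were lower, with medians of -2.03 and -1.93. By counts in CL, the 86 contigs with at least 100 counts there had a median of -2.02, 74 of them lower and 0 higher. Over all contigs that passed the filter, 4.96% were lower and 2.4% higher. Of the 197 raised contigs that passed it, 88 did so through CL alone and 0 through TL alone, which favours lower calls. The classes were not set beside other contigs of the same level.

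The ratio of TL over CL was set out by how far MT stood above its controls. Contigs with at least 10 CPM in MT were sorted by the ratio of MT to the higher of ML and CL. From 4-fold to 8-fold there were 133 contigs, 96 of them lower in TL than in CL, with a median log2 ratio of -2.02. At 8-fold and over there were 85, of which 43 of the 64 that passed the filter were lower, with a median of -1.94. From 3-fold to 4-fold there were only 22 contigs, 1 of them lower, with a median of -0.61, and from 2-fold to 3-fold there were 68, with 2 of 67 lower and a median of 0.08. Between 1-fold and 2-fold the median over 2068 contigs was 0.26. At the other end, below 0.5-fold, 32 of 146 contigs were lower in TL than in CL, with a median of -0.38. Low ratios of TL over CL were thus most common above the 4-fold limit, uncommon from 0.5-fold to 4-fold, and again present below 0.5-fold. CL takes part both in sorting the bands and in this ratio. A high CL value favours a low band and a low ratio together, so the band below 0.5-fold is in part selected.

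**Figure D3:**
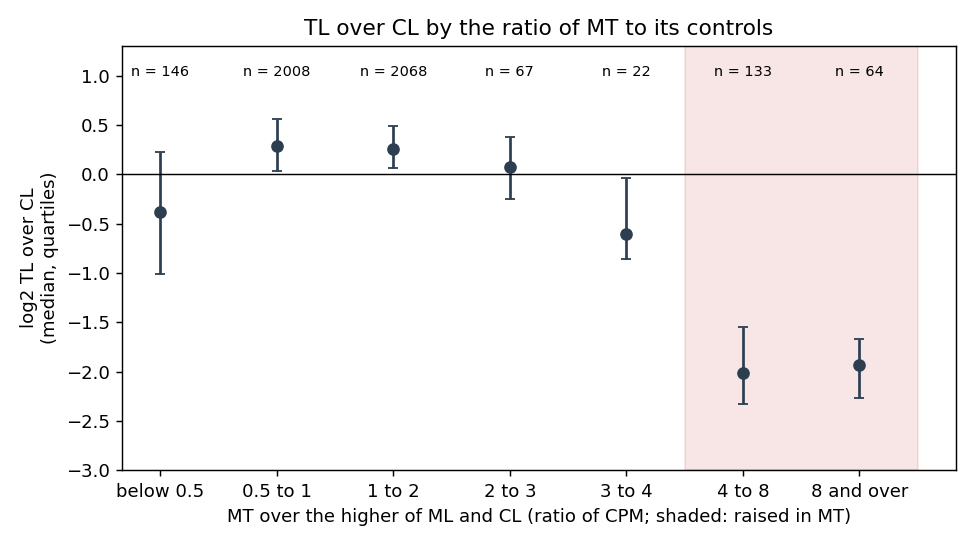
Median log2 ratio of CPM, TL over CL (points, with quartiles as bars), for contigs with at least 10 CPM in MT, in bands of the ratio of MT to the higher of ML and CL. The medians lie at -0.38 below 0.5-fold, between -0.61 and 0.29 from 0.5-fold up to 4-fold, and at -2.02 and -1.94 in the shaded bands that hold the raised contigs.

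Next to the limits the contigs were mixed. The 5 raised contigs nearest to the fold limit had MT at 4.17 to 4.38 times the higher control, with log2 ratios of TL over CL from -2.75 to 0.29. The 5 contigs nearest below it stood at 3.69 to 3.93 times, with ratios from -0.64 to 0.61. The 5 raised contigs nearest to the level limit had 10.03 to 10.4 CPM in MT, and the 5 nearest below it 9.71 to 9.99 CPM.

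The raised contig with the second highest level shows the common pattern. This contig, mniContig26880, had 398.5 CPM in MT and 8.98 CPM in TL, against 46.0 CPM in ML and 46.7 CPM in CL. Its counts were 9890 in MT and 203 in TL, against 1213 in ML and 990 in CL. The unexposed libraries were thus alike, MT lay above them and TL below. The log2 ratio of TL over CL was -2.38 (counting interval -2.60 to -2.16). The selected ratios of MT were 3.11 over ML and 3.09 over CL.

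The contigs farthest down in TL had few counts left there. The contig mniContig46408 had 880 counts in MT and 7 in TL, against 77 in ML and 88 in CL, which is 35.5 and 0.310 CPM against 2.92 and 4.15 CPM. Its log2 ratio of TL over CL was -3.74 (-5.10 to -2.64). The contig mniContig1311 had 252 counts in MT and 3 in TL, against 20 in ML and 31 in CL, with a log2 ratio of TL over CL of -3.46 (-5.82 to -1.78). With 3 to 7 counts in TL, the intervals of both are wide.

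A few contigs were high in both MT and TL. The 3 that passed the rule upward were also the only ones of the 218 (1.38%) at least 4 times both controls and at least 1 CPM in TL. Among the 4313 others with at least 10 CPM in MT, 8 (0.185%) were so. The choice of low ML and CL values favours the larger share among the raised contigs. By the counting interval of TL over CL with no filter, the share of higher contigs was 1.38% of the 218, against 2.57% of the others. The contig mniContig17144 had 56.4 CPM in MT and 34.98 CPM in TL, against 4.74 CPM in ML and 2.45 CPM in CL. Its counts were 1400 in MT and 791 in TL, against 125 in ML and 52 in CL, and its log2 ratio of TL over CL was 3.83 (3.43 to 4.27). Both MT and TL thus stood above both unexposed libraries. The contig c33312_g2_i3@@MT had 20.1 CPM in MT and 15.7 CPM in TL, against 2.96 CPM in ML and 2.36 CPM in CL, with a log2 ratio of TL over CL of 2.74 (2.31 to 3.20). The third, c27590_g1_i2@@ML, named because it completes this count, had 15.6 CPM in MT and 11.3 CPM in TL, against 1.78 CPM in ML and 2.17 CPM in CL, and a log2 ratio of 2.38 (1.92 to 2.86). These 3 were the only raised contigs with at least 0.5 times their MT level in TL, against 4054 of the 4313 others (94.0%). The choice of MT values at least 4 times both controls favours this gap, so it is given as description only.

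**Figure D4:**
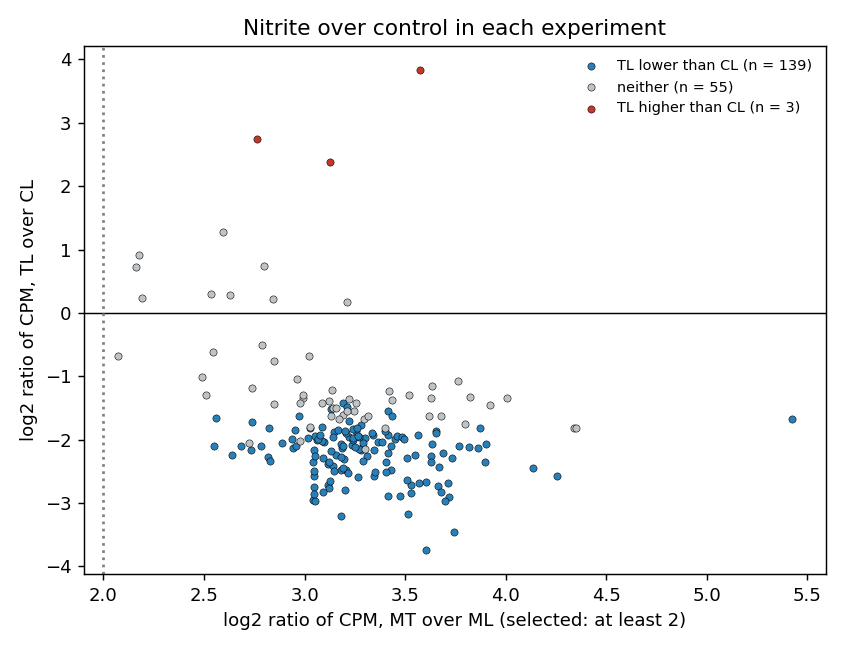
The 197 raised contigs that passed the filter, with the log2 ratio of CPM of MT over ML (horizontal, selected to be at least 2) and of TL over CL (vertical), which share no library. Blue points (139) are lower and red points (3) higher in TL than in CL, and grey points (55) are neither.

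The most abundant raised contig had another pattern. The contig mniContig28255 had 39201 counts (1579.5 CPM) in MT and 8 (0.354 CPM) in TL, against 0 in ML and 6 (0.283 CPM) in CL. It had few or no counts in TL and both controls, at 4465-fold more in MT than in TL (2266-fold at the lower bound of the counting interval). It was below the filter of 1 CPM in both TL and CL, so no ratio of that pair is given.

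It was 1 of 16 raised contigs with at most 10 counts in each of TL, ML and CL, a class set after the values were seen. They had 287 to 39201 counts in MT, with a median of 643, and made 20.5% of the counts of the whole set there. Their sums were 55679 counts in MT and 28 in TL, against 24 in ML and 17 in CL. Of the 16, 8 had no count in TL and 6 had none in TL, ML and CL. At these depths 3 counts equal 0.121 CPM in MT, 0.133 in TL, 0.114 in ML and 0.141 in CL, and a count of 0 allows up to that level. For TL over CL the counting interval held equality for all 16. For TL over ML it held equality for all but 2, of which 1, the most abundant contig, was higher in TL and 1 was lower, while the other 202 raised contigs could be counted in all libraries for the most part.

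The names of these 16 also differed. The table names contigs either by a running number (mniContig) or by an assembly name that ends in a column name. Of the 16, 12 end in MT and 4 are numbered. Among all 218 raised contigs, 184 were numbered (84.4%, against 84.4% of the contigs with at least 10 CPM in MT), 20 ended in MT (9.17% against 4.22%), 3 in TL (1.38% against 4.26%), 4 in ML (1.83% against 3.77%) and 7 in CL (3.21% against 3.40%). Lower in TL than in CL were 128 of the 177 numbered contigs that passed the filter, 4 of 8 that end in MT, 3 of 3 that end in TL, 1 of 3 that end in ML and 3 of 6 that end in CL. The 34 contigs with an assembly name came from 30 assembly genes, of which 4 gave 2 contigs each, so a few contigs may share a gene and its reads.

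Along the running numbers the raised contigs were uneven. Of the 184 numbered ones, 113 (61.4%) had numbers from 25000 to below 35000, a range set after the counts were seen, which held 26.5% of the numbered contigs with at least 10 CPM in MT. Within that range 11.2% of the 1012 contigs of that level were raised, against 2.53% of 2810 elsewhere. The pattern in TL was alike in both: 80 of 106 were lower and 0 higher than in CL within the range, with a median log2 ratio of -2.03, and 48 of 71 lower and 1 higher elsewhere, with a median of -1.96. Of the 184, 17 had another raised contig under the number just before or just after their own. What the numbering follows is not given in the sources used here.

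**Figure D5:**
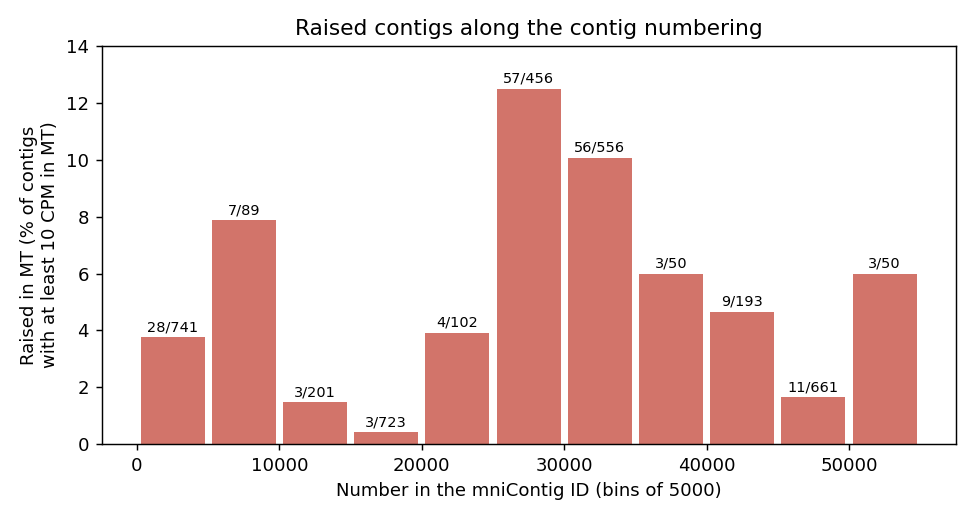
Share of raised contigs among the numbered contigs with at least 10 CPM in MT (vertical axis, percent), in bins of 5000 of the number in the contig name, with the counts above each bar. The bars from 25000 and from 30000 stand at 12.5% and 10.1%, and the other 9 between 0.415% and 7.87%.

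The same rule with another library in the place of MT gave sets of other sizes. With ML as the high library against MT and CL it found 7 contigs, of which 5 passed the filter for TL over CL, 3 of them lower and 0 higher. With CL as the high library against MT and ML it found 270, of which 208 were lower and 3 higher in TL than in CL, a direction that the choice of high CL values favours. The contigs raised in MT differ from that set in having been chosen for low values in CL. No test of the difference between these sets was possible with 1 library per group.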

How the data were processed

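The values are raw read counts for each contig in 4 hepatopancreas libraries, in a single table as deposited by the authors. Per the submitters' processing notes the tools include BWA 0.7.8-r455 and HTSeq, with no role, reference or strand setting stated, and the assembler is not given in the sources used here. Of the columns, 3 were matched to samples by name and 1 (TL) by elimination.

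CPM used column totals, as the rule that chose the contigs does. Ratios came with exact Clopper-Pearson 95% intervals on the share of both libraries' counts (scipy 1.17.1), which cover counting error only. A count of 0 in 1 library was set to 3 counts for the ratio. A contig was higher or lower when the interval lay beyond 2-fold, with at least 1 CPM in either library. The rule was tried on simulated counts with counting error alone, which cannot show how it performs under variation between libraries. With 1 library per group no test across samples was made. TMM and upper quartile factors came from edgeR 4.0.16 and size factors from DESeq2 1.42.0 in R 4.3.3, with column totals, thresholds, filters and the choice of contigs varied as alternatives. Named contigs were the 2 with the highest MT level and the 2 with the largest and smallest ratio of TL over CL past the rule. The contigs, lists and thresholds were chosen with earlier results of these data known.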

Additional observations from a re-analysis of the deposited data

Results flagged for a closer look

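The contrast of nitrite with its control ran in opposite directions in the 2 experiments for most of the raised contigs. All 218 were chosen to be at least 4 times higher in MT than in ML, and 197 of them passed the filter for TL over CL. Of these, 139 were lower in TL than in CL with the whole counting interval beyond 2-fold. Over all 23597 contigs that passed the filter, 4.96% were lower. Of the 197, 88 passed through CL alone and 0 through TL alone, which favours lower calls. With no filter, 139 of the 218 (63.8%) were lower, against 59 (1.37%) of the 4313 others with at least 10 CPM in MT. The median log2 ratios of the raised contigs were 3.25 for MT over ML, as selected, and -1.99 for TL over CL. The difference was not tested, since each group has 1 library, and it rests on TL being the acute nitrite library.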

How the results depend on the processing

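Of 107 alternative values, 72 stayed near the reported one (within 1.5 times, or within the counting interval for a share), 35 did not and 0 reversed. The median log2 ratio of TL over CL of the raised contigs kept its sign in every alternative run, from -2.19 to -1.93. Contigs lower in TL than in ML (82) were 127 with TMM factors, 130 with upper quartile factors, 134 beyond 1.5-fold, 6 beyond 4-fold, 153 without an interval and 40 without numbers 25000 to below 35000. Contigs lower in TL than in CL (139) were 43 at 8 times both controls, 16 beyond 4-fold, 29 with a 10 CPM filter and 59 without those numbers. Contigs higher in TL than in CL (3) were 1 at 8 times, 5 beyond 1.5-fold, 1 among numbered contigs and 16 when chosen on MT and CL alone; those higher than in ML (3) were 6 when chosen on MT and ML alone. The raised contigs numbered 140 at 20 CPM, 85 at 8 times and 105 without those numbers. They took 0.0433% of TL at 5 CPM, 0.0346% at 20 CPM, 0.0506% at 3 times, 0.0130% at 8 times, 0.0598% chosen on MT and ML alone, 0.224% chosen on MT and CL alone and 0.0236% without those numbers. Over all contigs, 1.59% were higher in TL than in CL with TMM factors and 1.59% with DESeq2 size factors, and higher and lower were 6.64% (higher alone) beyond 1.5-fold, 0.564% and 2.82% beyond 4-fold, 9.18% and 7.75% without an interval, 1.16% and 2.84% without a filter, and 4.64% (higher alone) at 10 CPM. Choosing on fewer libraries and leaving out numbers were added after the data were seen. A higher limit leaves fewer contigs by its own construction, and for the remaining changes the cause was not tested. The contigs seen in MT alone carried none of the calls. No paired analysis was possible because there is a single library per group.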

Other observations

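Contigs with at least 10 CPM in 1 library and at most 10 counts in each of the other 3, a class set after the values were seen, were counted for each library. There were 16 in MT, 2 in TL, 1 in ML and 114 in CL. They took 0.224% of the counts in MT, 0.00517% in TL, 0.0142% in ML and 0.630% in CL. Of the 16 in MT, 12 carry the name of that library, as do 94 of the 114 in CL.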
